A study of Cicer arietinum with 8 samples.

Results

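Pathogenesis-related, wound-induced and other defence transcripts of chickpea (Cicer arietinum) were followed through a cold treatment. The members were the features of a spotted cDNA array whose description held 1 of a set of defence words (pathogenesis, wound, chitinase, glucanase, disease resistance, defence, elicitor, hypersensitive, inhibitor, thaumatin or lipoxygenase), leaving out lentil features and a pair of named chickpea features. They were 32 of the 768 features. Of these, 9 were chickpea cDNAs and 23 were cDNAs of grasspea (Lathyrus sativus), to which chickpea RNA was hybridised across species. By description they fell into 6 PR10 type proteins, 5 PR4A proteins, 8 small defensin type peptides (disease resistance response proteins 39 and 230 and a defence-related peptide), 4 inhibitors of foreign enzymes, 2 cell wall hydrolases, 3 wound-induced proteins and 2 receptor or resistance protein homologues. The last 2, protein kinase C inhibitor-like proteins, came in through the word inhibitor alone.

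The study asked which transcripts respond to cold in genotypes that tolerate or do not tolerate it. The cold tolerant genotypes were Sonali (Tolerant1) and ILC 01276 (Tolerant2), and the cold susceptible ones were Amethyst (Susceptible1) and DOOEN (Susceptible2). Treatment began 2 weeks after flowering and lasted 7 nights, held at 5 °C between warmer days of 15 to 25 °C, and untreated plants of the same genotype were the controls. Leaves and flowers were taken, flowers together with buds and early pods, and RNA of 5 treated plants and of 5 control plants was pooled for each hybridisation. Each of the 8 groups was thus 1 genotype and 1 tissue, and each hybridisation gave a ratio of cold over control within its group. Each tolerance class held 2 genotypes, and bulk tissue was used, in which fewer cells of a type and less RNA per cell cannot be told apart.

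Pathogenesis-related (PR) proteins are plant proteins that accumulate after infection. PR10 proteins are small intracellular proteins, PR4 proteins bind chitin of the fungal wall, and plant defensins are small cysteine-rich peptides, many of which inhibit fungal growth. Other members act on enzymes or walls of attackers, and some PR proteins are also known to accumulate in the cold, as in winter cereals whose PR proteins can bind ice.

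There were 22 distinct hybridisations, 12 of leaves and 10 of flowers, since the deposited files of replicate 3 repeated those of replicate 1 in Tolerant2 flowers and Susceptible2 flowers. Cold RNA carried Cy5 in 14 and Cy3 in 8. The share of spots with no flag ranged from 17.8% to 76.4% between hybridisations. In leaves, the first replicates of Tolerant1 and Susceptible1 stood apart, with 4 and 3 members that had a ratio. These genotypes were quantified in other periods than Tolerant2 and Susceptible2, and each pair is called a set here. The treatment check gave no call: 0 of the 5 dehydrin and dehydration features passed limma's test in any group, although 1 to 2 of the 2 to 4 tested had an unadjusted p under 0.05 in 4 groups. In these groups the markers had median log2 ratios of -1.24 (Tolerant1 leaves), 0.28 (Tolerant2 leaves), -0.68 (Susceptible1 leaves) and -0.13 (Susceptible1 flowers). In the other groups the medians were 0.395 (Susceptible2 leaves), -0.07 (Tolerant1 flowers), 0.52 (Tolerant2 flowers) and 0.48 (Susceptible2 flowers), so the direction was mixed. The tissue check was weak, since chlorophyll a/b binding proteins had a median control level 0.39 higher in leaves on the log2 scale, 0 of 7 were called higher and 1 was called lower.

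The members were poorly covered. A ratio needed an unflagged spot in both channels, and 337 member values remained, so that 52.1% were missing against 34.2% over all features. A total of 12 members had a ratio in at least 15 hybridisations and 15 had one in fewer than 8. A subtilisin inhibitor, a defence-related peptide and a disease resistance response protein 230 feature (DY396260, DY396407 and DY396425) had none. A channel counted as detected where its signal was at least 2 times the local background. Control channels were detected for 74.8% of the chickpea members' values and for 40.3% of those of the grasspea members, and the other features of each species stood at 75.4% and 43.2%.

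Across the 8 groups, 1 member rose in cold in 1 group, and no member fell. This was the wound-induced protein DY475254 in Tolerant1 leaves. A feature was called where limma's adjusted p was below 0.05 and the mean log2 ratio at least 1 in size, which is a 2-fold change. The background was low as well: in leaves, 1.26% of all tested features were called in Tolerant1, 0.797% in Susceptible1, 0.586% in Tolerant2 and 0.389% in Susceptible2, against 0% in each flower group. The members tested were 20, 19, 16 and 14 in those leaf groups and 10, 15, 14 and 14 in Tolerant1, Tolerant2, Susceptible1 and Susceptible2 flowers. At an unadjusted p under 0.05, 3, 0, 0 and 3 members passed in leaves and 3, 0, 1 and 2 in flowers, in the same orders. Over all features 61 of 475 passed it in Tolerant1 leaves, 48 of 502 in Susceptible1 leaves, 57 of 512 in Tolerant2 leaves and 37 of 514 in Susceptible2 leaves. In flowers 65 of 478 passed it in Tolerant1, 10 of 532 in Tolerant2, 30 of 485 in Susceptible1 and 16 of 535 in Susceptible2.

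The middle of the members lay on different sides of 0 from group to group, and turned with single hybridisations. In Tolerant1 leaves 12 of 20 members lay above 0, with a median log2 ratio of 0.31 against 0.05 over all features, and 10 of 20 with a median of -0.02 without replicate 3. In Susceptible1 leaves it was 13 of 19, with a median of 0.17 against 0.02, and without replicate 3 it was 4 of 19 with a median of -0.26. In both groups replicate 3 was the hybridisation with cold in Cy3. In Tolerant2 leaves 3 of 16 lay above 0, with a median of -0.24 against -0.01, and all 9 grasspea members tested there were below 0. Without replicate 1 of that group, 8 of 16 lay above 0, with a median of 0.04, so none of these 3 shifts was seen without 1 of its hybridisations. Features with the same description can bind the same transcripts, so these counts are not counts of separate genes. In Tolerant1 flowers 2 of 10 lay above 0, with a median of -0.27 against 0.02 over all features, and without replicate 2 it was 5 of 10 with a median of -0.01.

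The 3 wound-induced proteins, named for their rise after tissue damage, behaved in 3 ways. DY475254 was above 0 in all 13 hybridisations that gave it a ratio. DY475220 had opposite signs in the susceptible genotypes, and DY475111 stayed near 0.

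In leaves, DY475254 gave log2 ratios of 1.79 and 1.71 in Tolerant1, 0.83 in Tolerant2, 0.28 in Susceptible1 and 1.28 and 0.72 in Susceptible2. In flowers it gave 1.14 in Tolerant1, 0.08 and 0.18 in Tolerant2, 0.41 and 0.36 in Susceptible1 and 1.03 and 1.17 in Susceptible2. The lowest values were those of Tolerant2 flowers, and the ranges of Tolerant1 leaves and Susceptible2 leaves did not overlap. It was above 0 in 7 of 7 hybridisations with cold in Cy5 and in 6 of 6 with cold in Cy3. In Tolerant1 leaves the mean was 1.75 (SE 0.224, n = 2, limma adjusted p = 0.0132). The means of 1.003 in Susceptible2 leaves (n = 2, adjusted p = 0.143) and 1.10 in Susceptible2 flowers (n = 2, adjusted p = 0.223) did not pass. Control RNA gave a weak signal at this feature, 1.90 to 3.49 times the local background, and it was detected in 12 control channels and 18 cold channels. In the authors' table of log2 group means the feature was below 0 in Susceptible1 leaves (-1.31 against 0.28 here, n = 1) and Susceptible1 flowers (-0.48 against 0.38). It was -0.002 in Tolerant2 leaves (0.83 here, n = 1) and above 0 in the other groups, and the cause was not tested. The call was lost without either replicate of Tolerant1 leaves (adjusted p = 0.281 and 0.099) and with flagged spots kept (1.26, adjusted p = 0.0528).

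DY475220 was the member that differed most between the susceptible genotypes. Its log2 ratios in leaves were -0.54 and -1.45 in Tolerant1, -1.31, 0.30 and 1.33 in Tolerant2, -0.86 in Susceptible1 and 2.17 and 0.91 in Susceptible2. In flowers they were 0.04, -0.46 and -1.40 in Tolerant1, -1.52 and 0.45 in Tolerant2, -0.64, -1.40 and -0.98 in Susceptible1 and 1.03 and 1.47 in Susceptible2. All 4 values of Susceptible2 were above 0.9 and all 4 of Susceptible1 were below 0, so these genotypes did not overlap in either tissue. In leaves this rests on a lone value of Susceptible1, too few for a test. The mean was 1.54 in Susceptible2 leaves (SE 0.563, n = 2, adjusted p = 0.447), 1.25 in Susceptible2 flowers (SE 0.563, n = 2, adjusted p = 0.9999) and -1.003 in Susceptible1 flowers (SE 0.46, n = 3, adjusted p = 0.726). Susceptible1 minus Susceptible2 flowers was -2.25 (SE 0.727, unadjusted p = 0.00786, limma adjusted p = 0.621), a contrast that was added after the values were seen and called 0 of 474 features. The genotypes were in different sets of hybridisations, whose part in this difference cannot be told apart from genotype.

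In leaves, DY475111 had log2 ratios of -0.41 and -0.01 in Tolerant1, 0.22, 0.19 and -0.53 in Tolerant2, -0.03 and -0.43 in Susceptible1 and -0.28, -0.31 and -0.21 in Susceptible2. In flowers they were -0.18, -0.75 and 0.12 in Tolerant1, 0.15 and 0.04 in Tolerant2, -0.36, 0.22 and 0.22 in Susceptible1 and -0.06 and 0.05 in Susceptible2. Within each tissue the groups overlapped, and 8 of 20 values were above 0. It was the steadiest of the well-covered members, with an SD of 0.309 in log2 ratio between replicates.

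**Figure D1:**
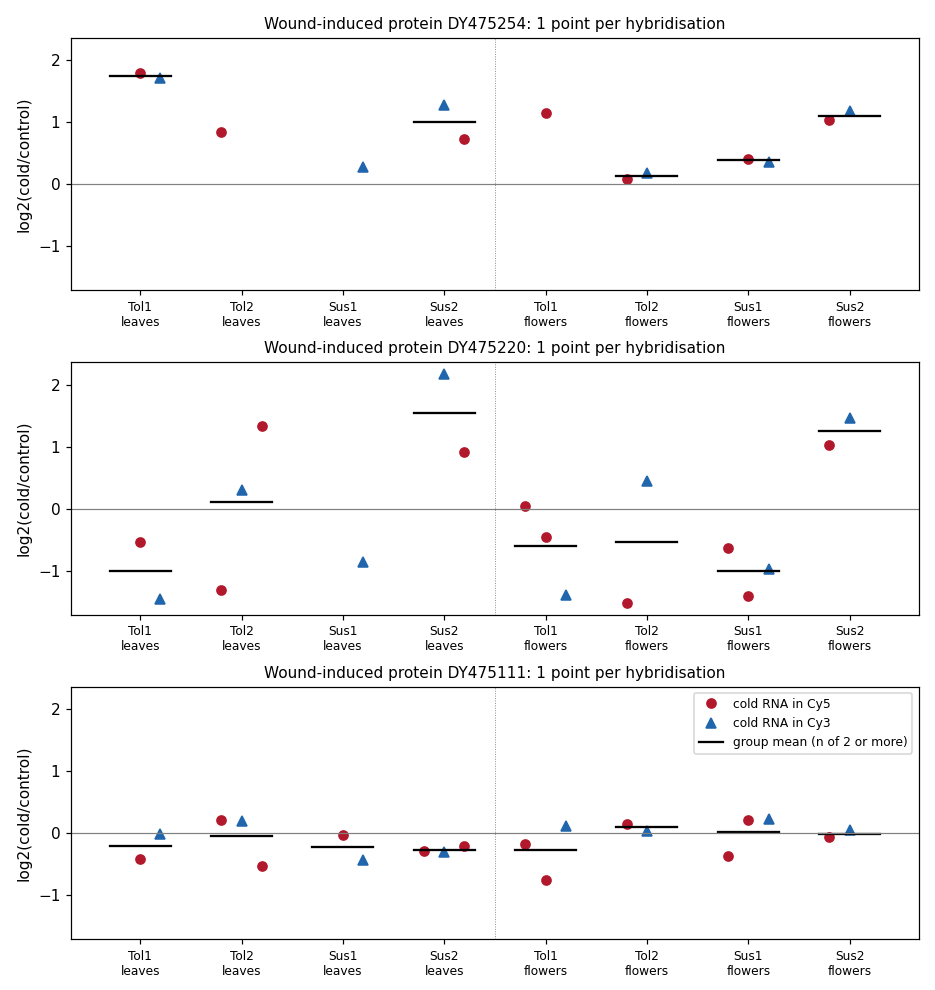
Log2 ratio of cold over control (vertical axis) for the 3 wound-induced features in each group (horizontal axis), 1 point per hybridisation. Red circles have cold RNA in Cy5 and blue triangles in Cy3, and bars are group means with n of 2 or more. All 13 points of DY475254 lie above 0, those of DY475220 lie on both sides, and DY475111 stays between -0.75 and 0.22.

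CV793593, a homologue of a putative disease resistance protein of Arabidopsis, was the only member with a ratio in all 22 hybridisations, and 17 of them were above 0. In leaves its log2 ratios were 0.82, 0.94 and 0.35 in Tolerant1, 0.69, -0.20 and 0.00 in Tolerant2, 0.18, 0.18 and 0.21 in Susceptible1 and 1.10, 0.34 and 0.49 in Susceptible2. In flowers they were 0.50, 1.52 and 0.05 in Tolerant1, -0.01 and 0.13 in Tolerant2, 0.10, -0.70 and -0.23 in Susceptible1 and 0.68 and 0.42 in Susceptible2. Tolerant1 and Susceptible2 were above 0 in every replicate of both tissues, and Susceptible1 flowers were the only group with a mean below 0 (-0.28). The largest mean was 0.70 in Tolerant1 leaves (SE 0.243, n = 3, adjusted p = 0.164), so no group passed. The elicitor-inducible receptor-like protein CV793609, of a family that senses molecules of attackers, lay between -0.66 and 0.61 with 10 of 20 values above 0.

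The PR10 type proteins held the largest single ratios of the members, and none was called. The ratios were not shared by replicates: the highest came from 1 hybridisation, replicate 2 of Tolerant1 flowers. PR10 is a family of similar copies, so probes for it may share transcripts.

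In leaves, CV793610, a chickpea class 10 PR protein, gave log2 ratios of 0.80 and 1.02 in Tolerant1, -0.69, -0.43 and -0.53 in Tolerant2, 0.17 and 0.87 in Susceptible1 and 1.37, 0.86 and 0.20 in Susceptible2. In flowers they were 4.85 and 0.57 in Tolerant1, -2.14 and 0.27 in Tolerant2, 0.13, 0.06 and 0.85 in Susceptible1 and 0.69 and 1.40 in Susceptible2. Tolerant2 leaves were the only leaf group below 0, without overlap with the other leaf groups. The values of Tolerant1 flowers differed so much that the mean of 2.71 was not called (SD 3.03, n = 2, adjusted p = 0.221). Without replicate 3 of that group the remaining value of 4.85 was called (adjusted p = 0.000446, with the spread taken from the other groups), and without replicate 2 the value was 0.57. Susceptible2 flowers averaged 1.04 (n = 2, adjusted p = 0.9999).

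Levels are the log2 signals of 1 channel after normalisation between hybridisations. In replicate 2 of Tolerant1 flowers the control level of CV793610 was 10.28 on the log2 scale, next to 10.35 in replicate 3, and the cold level was 15.13 against 10.92. The cold plants of replicate 2 thus stood 18.5-fold above those of replicate 3, and their control plants lay within 1.05-fold. The grasspea feature DY396305, described only as a pathogenesis-related protein, had a ratio of 3.69 in that hybridisation, its only one in Tolerant1 flowers. In leaves the ratios of DY396305 were 0.77 and 1.61 in Tolerant1, -0.57, -0.04 and 0.26 in Tolerant2, -0.95 and 1.36 in Susceptible1 and 1.06 in Susceptible2. In the other flowers they were -1.35 and 0.25 in Tolerant2, 0.28 and 0.19 in Susceptible1 and 0.03 in Susceptible2. Both replicates of Tolerant1 leaves were above 0, while those of Susceptible1 leaves lay on both sides. The mean of 1.19 in Tolerant1 leaves was not called (n = 2, limma adjusted p = 0.371).

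Among the other PR10 features, the chickpea DRRG49-C homologue EB085032 lay between -2.36 and 1.10 with 7 of 18 values above 0. The grasspea features DY396265 and DY396301 had 7 values each, from -0.68 to 1.02 and from -0.59 to 1.64. The grasspea DY396343, with 11 values, stayed between -0.32 and 0.78. EB085032 had its lowest values in replicate 1 of Tolerant2 leaves (-2.36), replicate 3 of Tolerant1 leaves (-2.04) and replicate 1 of Tolerant2 flowers (-1.73).

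**Figure D2:**
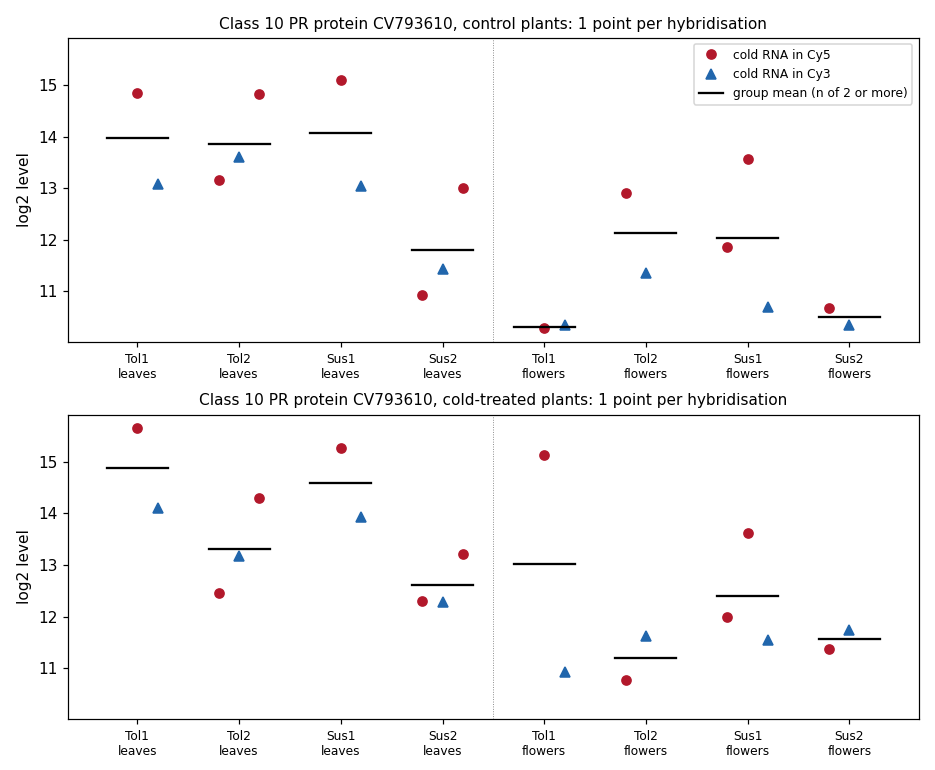
Log2 level of the class 10 PR protein CV793610 in control plants (upper panel) and cold-treated plants (lower panel) by group, 1 point per hybridisation. Red circles have cold RNA in Cy5 and blue triangles in Cy3, and bars are group means. Control levels are higher in leaves than in flowers, and 1 cold-treated pool of Tolerant1 flowers reaches 15.13 where its control is at 10.28.

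The 5 PR4A features, of 1 chickpea and 4 grasspea cDNAs, differed more between replicate hybridisations than between cold and control in leaves of Tolerant1 and Susceptible1. No PR4A feature was called in any group. In leaves, the chickpea feature CV793597 gave log2 ratios of -0.19 and 1.90 in Tolerant1, -0.77, -0.27 and -1.34 in Tolerant2, -1.31, -0.54 and 1.73 in Susceptible1 and -0.18, 0.88 and 0.58 in Susceptible2. In flowers it gave 0.23 in Tolerant1, -0.995 and 0.17 in Tolerant2, -1.08 and 1.46 in Susceptible1 and 0.68 and 0.55 in Susceptible2. In each tissue the range of Susceptible1 overlapped with those of all other groups. Tolerant2 leaves were the only leaf group with every value below 0, without overlap with Tolerant1 or Susceptible2 leaves. Tolerant2 flowers lay below Susceptible2 flowers.

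In both Tolerant1 leaves and Susceptible1 leaves, all 5 PR4A features had a ratio below 0 in replicate 2 and above 0 in replicate 3. For DY396281 the ratios were -0.41 and 1.35 in Tolerant1 and -1.41 and 1.13 in Susceptible1. The levels changed far more than the ratios. In control plants of Tolerant1, DY396281 stood at 15.29 in replicate 2 and 10.43 in replicate 3, a 28.9-fold difference, and in Susceptible1 at 15.38 and 9.96, a 42.9-fold difference.

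Over the 5 features the control plants of replicate 2 were 9.95- to 28.9-fold above those of replicate 3 in Tolerant1 leaves and 13.7- to 42.9-fold in Susceptible1 leaves. The cold-treated plants were higher as well, by 3.04- to 8.58-fold and 3.54- to 7.41-fold. The median feature of the array differed by -0.12 and -0.13 on the log2 scale in the control channels. The signal of DY396281 in control plants was 36.2 and 33.8 times the background in replicate 2, and 3.97 and 2.60 times in replicate 3. Control RNA carried Cy3 in replicate 2 and Cy5 in replicate 3, so the change of sign in the ratios fell together with the swap of dyes. With 1 hybridisation for each replicate, no test was made, and plants, RNA, dye and slide cannot be told apart.

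The PR10 features DY396305 and CV793610 were high in the same replicate of these leaves. Control plants of replicate 2 were above those of replicate 3 by 11.6- and 17.3-fold for DY396305 and by 3.41- and 4.14-fold for CV793610, in Tolerant1 and Susceptible1. The chickpea PR10 feature EB085032 was lower there, by -0.64 and -1.60 on the log2 scale. For the DRR39 defensin features the differences in control level were -0.82 to -1.09 in Tolerant1 leaves and -0.71 to 0.20 in Susceptible1 leaves. In Tolerant2 leaves DY396281 was at 10.51, 10.84 and 11.10 in control plants, none near 15. The chickpea PR4A feature CV793597 was at 13.04 in replicate 2 and 14.79 in replicate 3 of those control plants. A high PR4A level was thus also seen there, with replicate 3 above replicate 2 by 3.38-fold.

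**Figure D3:**
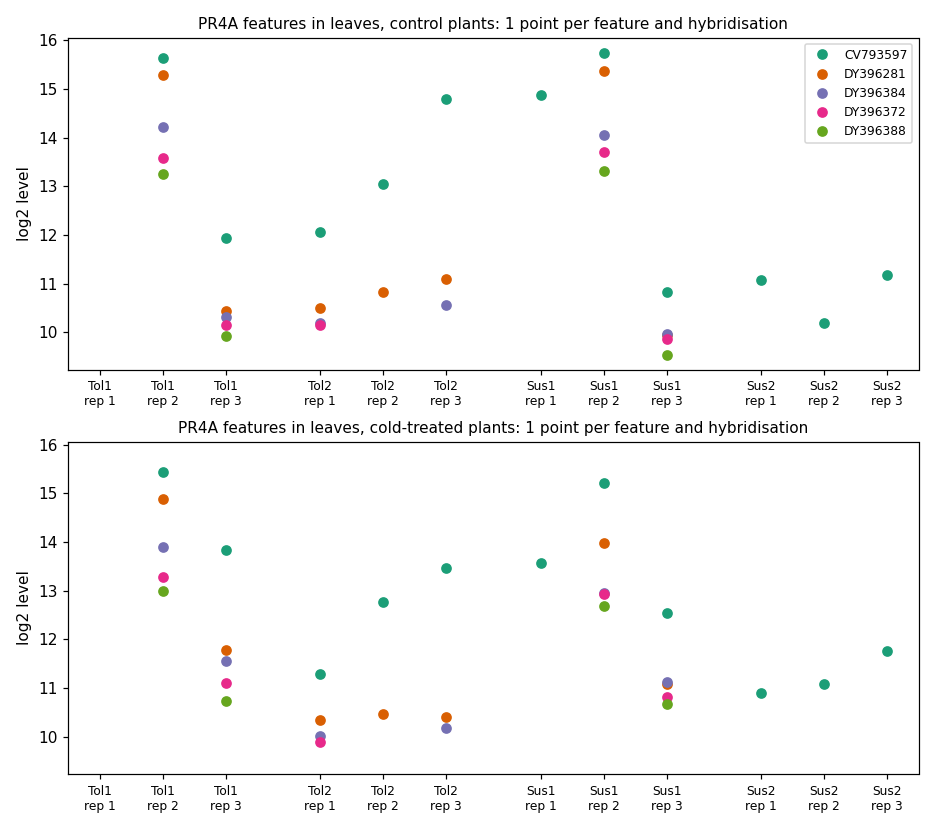
Log2 level of the 5 PR4A features in leaves of control plants (upper panel) and cold-treated plants (lower panel), 1 point per feature and hybridisation, by genotype and replicate. Replicate 2 of Tolerant1 and of Susceptible1 is high for all 5 features in both panels, with DY396281 at 15.29 and 15.38 in control plants.

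The defensin type disease resistance response protein 39 (DRR39), described from pea, was measured by 3 grasspea features, and a subtilisin inhibitor feature (ASI, an inhibitor of bacterial and other serine proteases) went up and down with them. No feature of either kind was called. In leaves, DY396277 gave log2 ratios of -0.07 and -0.60 in Tolerant1, -1.25, 0.23 and 0.24 in Tolerant2, -0.26 and 0.84 in Susceptible1 and -0.68, 0.44 and -0.12 in Susceptible2. In flowers it gave 0.02, -1.20 and 0.37 in Tolerant1, 0.26 and 0.99 in Tolerant2, -0.42 and -0.06 in Susceptible1 and 0.41 and -0.66 in Susceptible2. In 5 of the 8 groups the replicates lay on both sides of 0, and the leaf groups overlapped. Among flowers, Tolerant2 lay above Susceptible1, and the other pairs of groups overlapped.

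In leaves, DY396276 gave 0.09 and -0.48 in Tolerant1, -1.16, 0.17 and 0.25 in Tolerant2, -0.03 and 0.84 in Susceptible1 and -0.60, 0.57 and -0.10 in Susceptible2. In flowers it gave 0.73 and 0.85 in Tolerant2, -0.80 and 0.19 in Susceptible1 and 0.73 and -0.90 in Susceptible2. Its lowest value, -3.15, was in Tolerant1 flowers, where the other replicate was 0.27. The mean there was -1.44 (n = 2, adjusted p = 0.314), and it was 0.27 without replicate 2. In leaves, the subtilisin inhibitor DY396374 gave -0.61, 0.13 and -0.55 in Tolerant1, -1.20, 0.14 and 0.39 in Tolerant2, 0.01 and 0.47 in Susceptible1 and -0.60, 0.53 and -0.45 in Susceptible2. In flowers it gave -0.15, -2.29 and 0.17 in Tolerant1, 0.55 and 0.93 in Tolerant2, -0.25, -1.05 and 0.00 in Susceptible1 and 0.41 and -0.77 in Susceptible2. Replicate 2 of Tolerant1 flowers was again the lowest.

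Across hybridisations Pearson's r was 0.97 between DY396374 and DY396276 (n = 18) and 0.91 between DY396374 and DY396277 (n = 19). Between the DRR39 features DY396296 and DY396277 it was 0.93 (n = 19). Without replicate 2 of Tolerant1 flowers these values were 0.97, 0.92 and 0.91. The points share RNA pools and slides within a hybridisation and are given as a description. Over 141590 pairs of all features with at least 8 shared hybridisations the median r was -0.01, and 0.641% of pairs reached 0.85. Of 17 pairs of members of 1 family 35.3% did, and of 114 pairs across families 2.63%. A second ASI feature, DY396426, stayed within -0.79 to 0.54 and did not move with DY396374 in replicate 2 of Tolerant1 flowers, where it was -0.56.

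The levels of the DRR39 features and of DY396374 set replicate 2 apart in flowers of Tolerant1 and of Susceptible1. In Tolerant1 flowers the control plants of replicate 2 were above those of replicate 3 by 12.3- to 25.6-fold for the 3 DRR39 features and by 21.1-fold for DY396374. In Susceptible1 flowers the same comparison gave 4.91- to 6.53-fold for DRR39 and 7.75-fold for DY396374. The median feature differed by -0.27 and -0.45 on the log2 scale. Cold-treated plants of replicate 2 were above those of replicate 3 as well, by 1.15- to 7.75-fold in Tolerant1 and 3.31- to 7.06-fold in Susceptible1 for DRR39, the 1.15-fold being DY396276, and by 3.83- and 3.74-fold for DY396374. The other ASI feature, DY396426, differed in control level by 0.05 and -0.91 on the log2 scale in Tolerant1 and Susceptible1. PR features were also high in control plants of replicate 2 of Susceptible1 flowers. They stood above replicate 3 by 15.4-fold for CV793597, 7.29-fold for CV793610 and 3.815-fold for DY396305. EB085032 was lower there, by -0.84 on the log2 scale, and in Tolerant1 flowers CV793610 differed by -0.07.

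**Figure D4:**
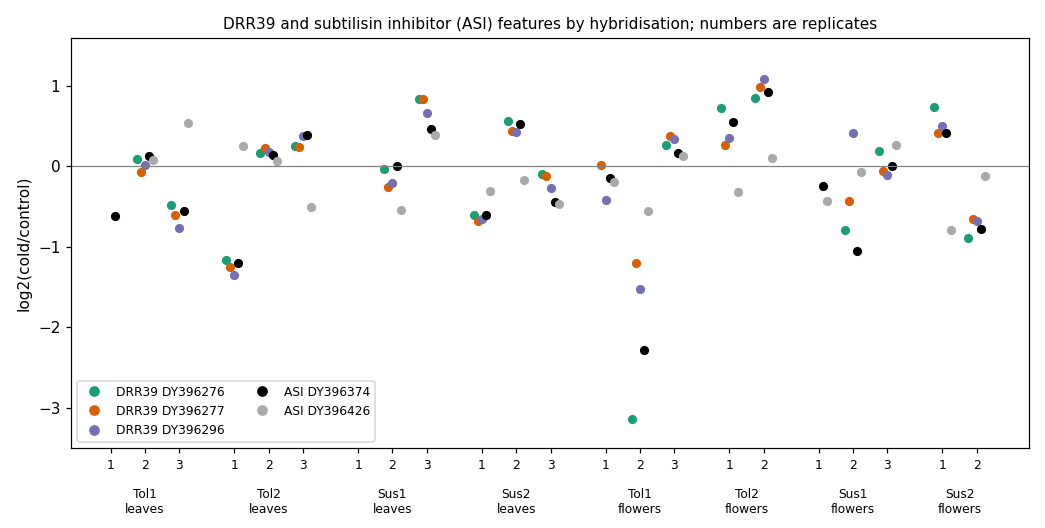
Log2 ratio of cold over control for the 3 DRR39 defensin features and 2 subtilisin inhibitor (ASI) features in each hybridisation, with replicates numbered along the horizontal axis. DY396374 follows the DRR39 features, down to -2.29 in replicate 2 of Tolerant1 flowers where DY396276 is at -3.15, and DY396426 is at -0.56 there.

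The remaining members had few values. The 3 features for disease resistance response protein 230, a defensin described from pea, that had a ratio held 9 values between -1.16 and 1.20 and were tested in no group. The putative chitinase DY396275, which would cleave chitin of fungal walls, gave -0.68 in Tolerant2 flowers and 1.47 in Susceptible1 flowers, and the beta-1,3-glucanase CV793598, which cleaves glucan, gave -0.29 in Susceptible2 leaves and 0.15 in Tolerant1 flowers. The polygalacturonase inhibitor protein DY396389, of a kind that blocks pectin-digesting fungal enzymes, was above 0 in 6 of 6 hybridisations, from 0.12 to 1.37. For DY396389 the authors' table of group means held -4.14 in Susceptible2 leaves and -0.05 in Tolerant2 flowers, against 0.15 and 0.13 here. It held values above 0 in Susceptible1 leaves, Tolerant1 flowers and Susceptible1 flowers, and the cause was not tested. The protein kinase C inhibitor-like features gave 0.74 and 1.86 (DY396283) and 1.13 (DY396285), all in replicate 2 of Susceptible1.

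No member passed the test for a different cold response in leaves and flowers or in tolerant and susceptible genotypes. The background was 1.72% of 406 features called for leaves minus flowers, and 0% of 445 and of 446 for tolerant minus susceptible in leaves and in flowers. Of 9, 11 and 10 members tested, 0 passed limma's test in each, and 0 had an unadjusted p under 0.05. For DY475111, leaves minus flowers was -0.15 (95% interval -0.48 to 0.18), and for CV793610 it was -0.37 (-1.35 to 0.61), an interval that leaves room for a difference of over 2-fold. For CV793593, tolerant minus susceptible was 0.02 in leaves (-0.49 to 0.53) and 0.24 in flowers (-0.33 to 0.81). DY475254 had too few values for these contrasts.

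In control plants, CV793610 was 4.38-fold higher in leaves than in flowers. Its levels in leaves were 14.85 and 13.08 in Tolerant1, 13.15, 13.60 and 14.83 in Tolerant2, 15.10 and 13.05 in Susceptible1 and 10.94, 11.43 and 13.01 in Susceptible2. In flowers they were 10.28 and 10.35 in Tolerant1, 12.91 and 11.35 in Tolerant2, 11.86, 13.57 and 10.70 in Susceptible1 and 10.68 and 10.34 in Susceptible2. Leaves and flowers overlapped in Susceptible1 and in no other genotype. The difference was 2.13 on the log2 scale (SE 0.378, n = 19, limma adjusted p = 0.000679), and it was the only one of 9 members tested that was called, where 20.9% of all features were. Within the second period of image quantification it was 2.80 (adjusted p = 0.0139) and within the third 1.39 (adjusted p = 0.0495). With flagged spots kept it was 1.47 and not called (adjusted p = 0.103).

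A smaller difference in the other direction was seen for 2 members. The subtilisin inhibitor DY396426 was lower in leaves by 0.90 on the log2 scale (adjusted p = 0.00306) and the wound-induced DY475111 by 0.50 (adjusted p = 0.0206), both under 2-fold. For DY475111 the difference was -0.07 in the second period and -0.83 in the third. The DRR39 feature DY396277 went in opposite directions, at -1.83 in the second period (adjusted p = 0.183) and 1.12 in the third (adjusted p = 0.0324). Between tolerant and susceptible control plants 0 of 11 members were called in leaves and 0 of 10 in flowers by limma, with 1 and 0 at an unadjusted p under 0.05 and a background of 0% in both. In leaves the tolerant genotypes stood at 1.36 for CV793597 and 0.98 for CV793610 above the susceptible ones on the log2 scale, neither of which passed.

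The control levels of many members varied widely between replicates. Over the 13 members and 496 features in all with at least 6 residual degrees of freedom, a comparison chosen after the values were seen, the median SD of the log2 control level between replicates was 1.09 for members and 0.574 for all features. Of the 13 members 8 lay above the 90th percentile of all features, 1.07. The largest were 1.84 for the PR4A feature CV793597 and 1.68 for the PR10 feature DY396305, and the smallest was 0.268 for the wound-induced DY475111. In alternatives added after seeing the data, 7 of 13 lay above it without the first leaf replicates of Tolerant1 and Susceptible1. Without replicate 2 of the Tolerant1 and Susceptible1 groups 5 of 12 did, with medians of 0.795 and 0.468. In log2 ratio, 6 of 13 were above the 90th percentile, with a median SD of 0.765 for members and 0.432 for all.

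**Figure D5:**
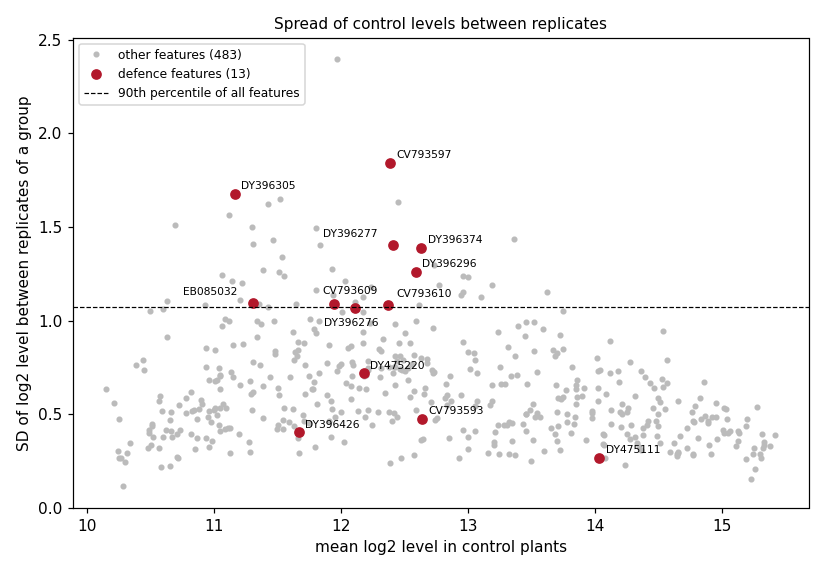
SD of the log2 control level between replicates of a group (vertical axis) against the mean log2 control level (horizontal axis), 1 point per feature. Red points are the 13 defence features with at least 6 residual degrees of freedom, grey points are the other features, and the dashed line is the 90th percentile of all. Of the 13, 8 lie above the line, led by CV793597 at 1.84.

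Among defence features outside the members, the calls came from 2 features. Of 28 further features listed by description, 2, 2, 1 and 1 were called, all higher in cold, in Tolerant1, Tolerant2, Susceptible1 and Susceptible2 leaves, of 12, 14, 13 and 14 tested, and 0 in each flower group by limma, where 1, 0, 2 and 1 had an unadjusted p under 0.05. Over all features 1.26%, 0.586%, 0.797% and 0.389% were called in those leaf groups. The list was chosen with earlier results of these data known, so its counts are not a test against the members. The called features were a feature for the antimicrobial peptide precursor SNAKIN2 (CV793608) and a gamma-thionin type defensin (CV793588). CV793608 was called in all 4 leaf groups with means of 1.33, 1.66, 1.15 and 1.41. CV793588 was called in Tolerant1 leaves at 1.92 and Tolerant2 leaves at 2.23. A second SNAKIN2 feature, CV793606, was called in no group and had too few values for the tolerant against susceptible contrast in leaves. In flowers its mean log2 ratio was 0.01 in tolerant and 0.22 in susceptible genotypes. CV793608 was also the 1 listed feature of 9 whose response differed between leaves and flowers, by 1.19 (limma adjusted p = 0.00519). With same-numbered hybridisations as a replicate block this difference was not called (limma adjusted p = 0.0624). Nor were CV793608 in Tolerant1 leaves (adjusted p = 0.0673) and Susceptible1 leaves (adjusted p = 0.0562) or the gamma-thionin in Tolerant1 leaves (adjusted p = 0.0673). The description of the gamma-thionin also held the defence word inhibitor, and it was outside the members only because it was left out by name. The DRR39 members, of the same broad class of peptides as the gamma-thionin, were called in no group.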

How the data were processed

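Log2 ratios of cold over control were measured in 22 distinct hybridisations. The deposited scanner files (ImaGene, per the file headers) held unnormalized spot intensity, local background and flags. A table of log2 group means, also deposited by the authors, was made after background subtraction, omission of flagged spots, LOWESS and a shifted log2 transformation of unstated size. It served as an alternative alone, and its centring and scale are unknown. Dyes and channels were read from file names. One file was sorted by feature and was put back in print order. Features were named from the study's feature list by print order (732 of 732 positions matched).

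In limma 3.58.1 under R 4.3.3, intensities were corrected with normexp (offset 50), normalised by loess (span 0.3, 4 iterations, control and flagged spots at weight 0, a weighting chosen after counts under both weightings were seen), turned to cold over control and averaged over unflagged spots, of 6 per feature. Features were kept where a channel was at least 2 times the background (738 of 756, with all 32 members). One model over the 8 groups (lmFit, eBayes) gave two-sided tests, adjusted by Benjamini-Hochberg over all features with at least 2 replicates in each group needed. Contrasts of cold response were called at adjusted p below 0.05 at any size. Control levels were compared after Aquantile, with dye as a covariate, and called also at 2-fold. Replicates were labelled as separate samples of 5 pooled plants. The number of arrays limits the precision. Scripts were tested on simulated data.

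Members described in full were those called, those with a mean log2 ratio of at least 1 in size and the best covered of each family. Members and lists were chosen with earlier results of these data known. Alternatives changed the background correction, loess, flags, filters, dye term, period, replicate block, test and hybridisations used.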

Additional observations from a re-analysis of the deposited data

How the results depend on the processing

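The number of members called in a group, 1 in the analysis reported, was 0 with flagged spots kept (10 features in all), 0 with the methods' t-test (0 in all), 3 with repeated files taken as extra replicates (28 in all) and 41 in the deposited table at 2-fold without a test (541 in all). For DY396343 that table held -1.46 in Tolerant1 leaves and -1.69 in Tolerant2 leaves, against -0.25 (n = 1) and -0.03 here, and the cause was not tested. The study itself tested this feature and listed it as repressed in leaves of both tolerant genotypes. It was called in neither group here. Leaving out 1 hybridisation at a time gave 0 to 4: 0 without Tolerant1 leaves replicate 2 or replicate 3, and 4 without Tolerant1 flowers replicate 3, where a lone sample is assumed to vary like the other groups. The mean of DY396276 in Tolerant1 flowers turned from -1.44 to 0.27 without replicate 2 of that group and was -3.15 without replicate 3. Members with a different control level between leaves and flowers were 1 as reported and 2 with flagged spots kept (DY396426 and DY396281), and 1 to 2 when a hybridisation was left out. Over the other alternatives, among them background subtraction, median centring, the dye term and the period block, these counts stayed at 1, as did the 0 of the other 5 comparisons under every alternative run. All features called by group were 15 as reported, 22 with a dye term, 10 with median centring and 10 with flagged spots at full weight in the loess curve, an alternative added after seeing the data. Of 122 member means, median centring turned the sign of 10. Same-numbered hybridisations of the genotypes of a set correlated at -0.11 to 0.79 over 11 pairs, of which 10 were at 0.37 or more, and every pair of Tolerant1 with Susceptible1 was. Since 1 pair of the other set was below 0.1, the number was not taken as a pairing of all samples. With the replicate block DY475254 in Tolerant1 leaves (adjusted p = 0.0138) and CV793610 in control leaves (adjusted p = 0.0133) were still called, 9 features in all were called by group, and 0 for leaves minus flowers against 7. Weak signal limits the grasspea members most, and 10 of the 32 members could be tested in no group.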
